A study of Mus musculus with 6 samples.

Results

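Interferon-stimulated genes are the genes that cells switch on when an interferon reaches them, and they were followed here in the epididymal white fat of wild type mice and of transgenic mice with lipodystrophy, a failure to form or keep fat depots. The members are 37 genes chosen by name. A member counts as measured where the array annotation pairs at least 1 probe set with that gene alone, which held for 35 of the 37, through 55 probe sets, out of 18194 genes named in this way. Ifi44 was not matched to a probe set, and the probe set of Isg15 is shared with another gene in the annotation, so the expression of neither is analysed here. The dim Mx2 was below the filter on low signals, which left 34 members tested among 13111 genes. Of the 37 members, 28 are counted as type I genes, driven mainly by interferon alpha and beta, and 9 as type II genes, driven mainly by interferon gamma, and 25 and 9 of them were tested.

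The 6 mice were males aged 10 weeks, and the labels give both groups a C57BL6;SJL background. The 3 transgenic mice (labelled MUT) carry aP2-nSREBP1c, a transgene in which the aP2 (Fabp4) promoter drives nuclear SREBP-1c, the active form of a regulator of lipid synthesis genes. That promoter is used mainly by fat cells and is also active in macrophages. The labels of transgenic replicates 2 and 3 spell the transgene aP2-nSrebp1 and aP2-SREBP1c. The 3 controls (labelled WT) were wild type and matched by litter, and RNA of each mouse went on its own Affymetrix array. The values are MAS5 signals, linear intensities with 1 value per probe set and array, and tests used log2 of the signal + 16. The background of 2 strains can differ between mice, and which alleles each mouse carried was not tested.

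Type I interferons bind the receptor of Ifnar1 and Ifnar2, whose signal reaches a complex that includes STAT2 and IRF9, and this complex binds the interferon-stimulated response element (ISRE) in front of antiviral genes. Type II interferon binds the receptor of Ifngr1 and Ifngr2 and acts through the gamma-activated site (GAS) and through IRF1, and the genes that follow serve antigen processing and the defence against intracellular parasites. Many members answer both kinds of interferon, so the classes are leanings and not exclusive. In fat tissue macrophages, lymphocytes, vessel cells and fat cells can all respond to interferon.

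The array of transgenic replicate 2 stood apart in control probe sets for beta-actin and Gapdh. The ratio of 3′ to 5′ control signals was 122 for beta-actin and 55.9 for Gapdh. The remaining 5 arrays had beta-actin ratios of 1.11 to 1.81 and Gapdh ratios of 0.772 to 1.22. The median signal of replicate 2 was 37.7, against 53.4 to 65.4 on the others. It lay more than 1 log2 unit below the mean of transgenic replicates 1 and 3 on 18 of 49 tested member probe sets (36.7%) and on 28.0% of all 27022 tested probe sets. The ratio of another control, Pcx (pyruvate carboxylase), did not set it apart: it was 14.1, against 3.06 and 3.10 in wild type replicate 3 and transgenic replicate 1 and 40.6 to 52.0 on the other 3 arrays. Results for the members are given with all 6 arrays and without transgenic replicate 2. Markers of fat cells were bright on every array (summed signal of 10 markers 65320 to 72239 in wild type and 31585 to 47646 in transgenic fat), as the tissue label says.

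The promoter letters that interferon factors can bind are shown for 7 members, chosen because the results turn on them. The 180 bases before a RefSeq transcript start (build GRCm38.p6, 5′ to 3′ on the gene's strand) are chr12:26456453-26456632 on the minus strand for Rsad2 and, on the plus strand, chr19:34583349-34583528 for Ifit3, chr19:34640709-34640888 for Ifit1, chr5:114923060-114923239 for Oasl1, chr3:142620483-142620662 for Gbp2, chr11:53769834-53770013 for Irf1 and chr17:34198015-34198194 for Psmb8. All of it lies upstream of that start. Capitals mark the fixed bases of the ISRE core, which is GAAA, any 2 bases and GAAA again (TTTC, any 2 bases and TTTC on the other strand), and of the GAS core TTCNNNGAA, which reads the same on both strands.
Rsad2: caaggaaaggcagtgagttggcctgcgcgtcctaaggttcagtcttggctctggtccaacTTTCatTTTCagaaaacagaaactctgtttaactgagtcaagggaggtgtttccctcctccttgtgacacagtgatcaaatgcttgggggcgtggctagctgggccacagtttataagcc
Ifit3: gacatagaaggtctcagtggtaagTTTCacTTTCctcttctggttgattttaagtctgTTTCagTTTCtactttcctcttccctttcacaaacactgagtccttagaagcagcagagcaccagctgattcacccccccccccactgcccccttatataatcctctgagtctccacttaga
Ifit1: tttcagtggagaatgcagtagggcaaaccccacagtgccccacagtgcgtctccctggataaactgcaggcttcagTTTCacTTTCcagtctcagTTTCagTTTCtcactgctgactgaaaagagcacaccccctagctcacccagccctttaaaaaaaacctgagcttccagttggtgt
Oasl1: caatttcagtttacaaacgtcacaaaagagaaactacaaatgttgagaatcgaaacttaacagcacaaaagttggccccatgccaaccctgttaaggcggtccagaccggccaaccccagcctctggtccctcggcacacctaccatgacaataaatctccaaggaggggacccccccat
Gbp2: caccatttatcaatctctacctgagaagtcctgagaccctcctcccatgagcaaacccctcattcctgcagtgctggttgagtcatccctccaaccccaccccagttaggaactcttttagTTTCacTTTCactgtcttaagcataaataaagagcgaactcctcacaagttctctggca
Irf1: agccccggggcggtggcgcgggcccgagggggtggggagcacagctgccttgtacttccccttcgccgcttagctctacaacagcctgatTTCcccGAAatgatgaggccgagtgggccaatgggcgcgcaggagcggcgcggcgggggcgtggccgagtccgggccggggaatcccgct
Psmb8: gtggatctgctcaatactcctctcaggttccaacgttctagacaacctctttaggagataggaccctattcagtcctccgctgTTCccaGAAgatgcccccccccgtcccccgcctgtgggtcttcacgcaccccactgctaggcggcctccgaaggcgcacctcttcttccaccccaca

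Rsad2 and Gbp2 held 1 ISRE core in these stretches, Ifit3 and Ifit1 held 2 each, and Irf1 and Psmb8 held 1 GAS core each. Oasl1 held neither, which says only that these letters are not in this window. Among the 30 members in the RefSeq promoter table, Isg15 and Ifi44 among them (300 bases, from 250 before the start to 50 after it), 14 held an ISRE core (46.7%) and 8 a GAS core (26.7%). Of 27025 genes with such a window 3.99% held an ISRE core and 9.55% a GAS core. By class, an ISRE core was found for 10 of 21 type I and 4 of 9 type II members, and a GAS core for 4 of 21 and 4 of 9. The ISRE core can overlap itself, as in Isg15, Oas1a, Bst2, Gbp3 and Irgm1, and a match is a description of letters, not of binding. Usp18, Oas2, Mx1, Mx2, Dhx58, Zbp1 and Parp14 were not in the table.

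The design sets lipodystrophic against normal fat and so asks how RNA levels differ between them. With all 6 arrays 3 of 34 tested members rose and none (0) fell at an adjusted p of 0.05 (limma, adjusted over all tested probe sets), where 3.77% of all 13111 genes passed it (2.23% rose and 1.54% fell). They were Oasl1, Rsad2 and Ifit3, all of the type I class. Of the 9 type II members 0 passed the test. At an unadjusted p under 0.05, 3 of the 9 type II and 8 of the 25 type I members were higher, as were 9.44% of all genes. In 11 members every transgenic array was above every wild type array, and in 0 was every one below, where 14.1% of all genes were higher without overlap and 16.3% lower. The median log2 difference was 0.33 over the type I members and 0.40 over the type II members, against −0.04 over all genes. Of the 34 members 27 had a difference above 0, as did 46.7% of all genes.

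Without transgenic replicate 2, 14 of 34 members passed the test as higher and 0 as lower, where 8.04% of all genes were higher and 7.33% lower. These were 9 of 25 type I members (Rsad2, Ifit3, Oasl1, Oas3, Cmpk2, Zbp1, Stat2, Xaf1 and Lgals3bp) and 5 of 9 type II members (Irf1, Irf8, Gbp2, Psmb8 and Psmb9), and they included all 3 of the genes called with 6 arrays. The class medians became 0.52 for type I and 0.70 for type II, with 0.02 over all genes. In 21 members both remaining transgenic arrays were above all wild type arrays (24.1% of all genes), and in 0 were both below (22.4% of all genes). No test between the classes was made. In a bulk sample more cells of a responding type and more RNA per cell cannot be told apart. The summed signal of 20 macrophage markers was higher on every transgenic array (44086 to 59896) than on any wild type array (26471 to 32088), and its part in these counts was not tested.

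**Figure D1:**
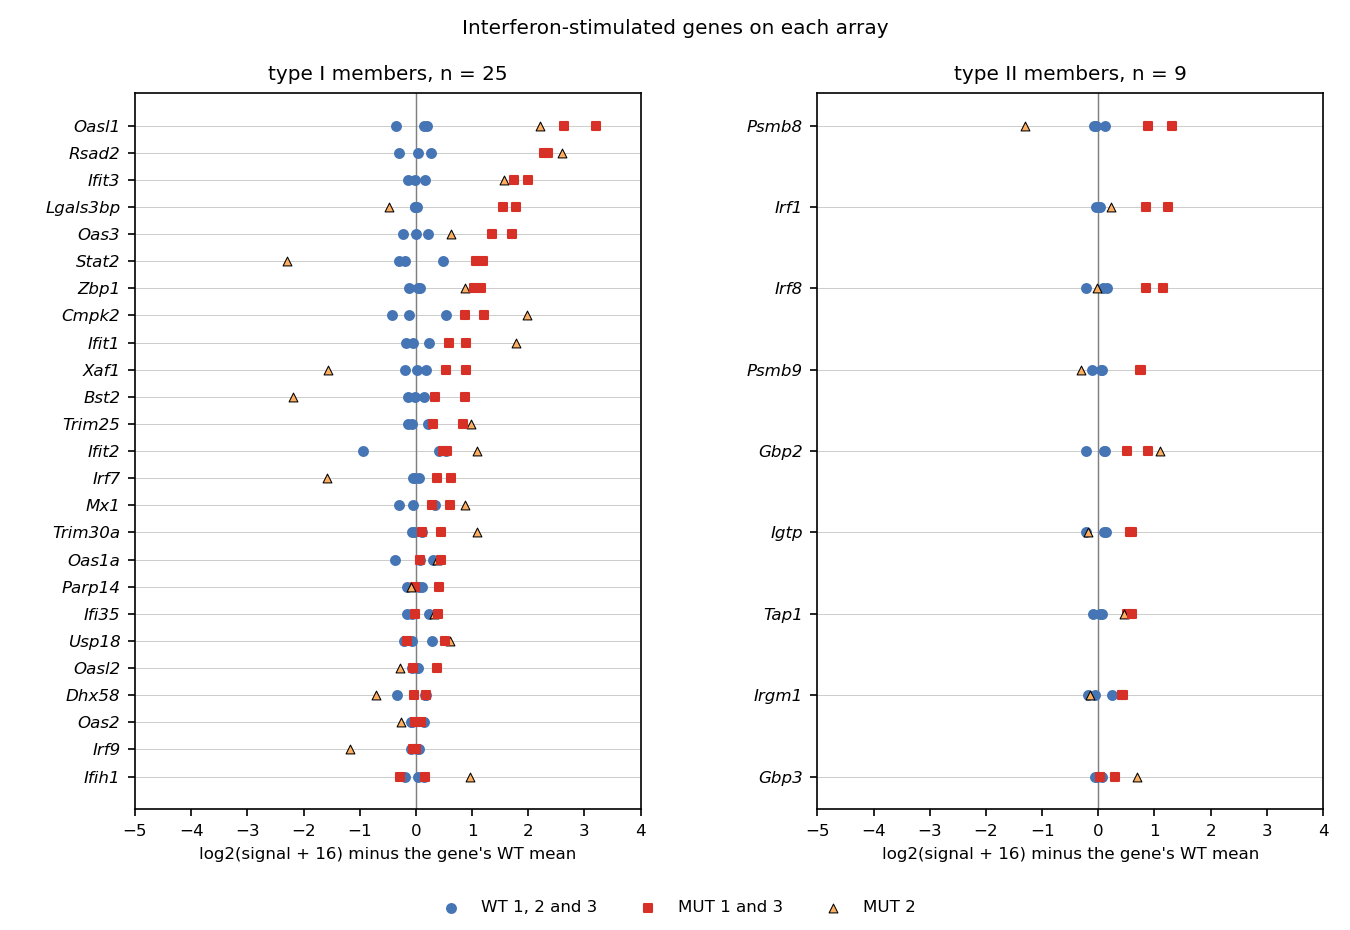
Signal of each tested member on each array, as log2(signal + 16) minus the mean of the 3 wild type arrays, for 25 type I and 9 type II members, ordered by the difference without transgenic replicate 2. Oasl1, Rsad2 and Ifit3 stand clear of wild type on all 3 transgenic arrays, while transgenic replicate 2 (triangles) lies left of wild type for Stat2, Bst2, Irf7, Xaf1 and Psmb8 and right of the other transgenic arrays for Cmpk2, Ifit1 and Ifih1.

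Array by array, transgenic replicate 3 was above every wild type array in 31 of 34 members (49.7% of all genes) and below every one in 0 (25.5% of all genes). Transgenic replicate 1 was above in 22 (27.4% of all genes) and below in 1 (46.3% of all genes). On transgenic replicate 2, 19 members were above (38.2% of all genes) and 11 below (47.4%). The median deviation from the wild type mean was 0.34, 0.60 and 0.63 log2 units over the type I members in transgenic replicates 1, 2 and 3, and 0.56, −0.02 and 0.74 over the type II members. Both class medians thus lay above the wild type mean in replicates 1 and 3, and in replicate 2 only the type I median did. Over all genes the medians were −0.11, −0.12 and 0.16, so the type II median in replicate 2 was not below that of all genes. By count, 15 of 25 type I members on replicate 2 were above every wild type array and 9 below every one. Of the 9 type II members there, 4 were above and 2 below. A difference between the classes on this array was not tested.

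Among the antiviral effectors, Rsad2 encodes viperin, an enzyme that makes a chain-terminating nucleotide against viral RNA synthesis. Its signal was 443.5, 344.2 and 517.8 in wild type replicates 1, 2 and 3 and 2159, 2701 and 2251 in transgenic replicates 1, 2 and 3. Every transgenic array was thus well above every wild type array. Rsad2 rose 5.33-fold (log2 difference 2.41 ± 0.24 SE, adjusted p = 0.00527), and the call held whichever array was left out, with an adjusted p of at most 0.0492. The other 2 probe sets of Rsad2 passed the test when transgenic replicate 2 was left out, the first at 2.39 ± 0.31 SE (adjusted p = 0.000928) and the second at 2.17 ± 0.25 SE (adjusted p = 0.000504). With it they had 1.23 (adjusted p = 0.554) and 1.46 (adjusted p = 0.304). On that array their signals were 68.5 and 183.4, against 765.6 and 1137 for the first and 733.6 and 1023 for the second on the other transgenic arrays. When all probe sets of Rsad2 were averaged the difference was 1.70 (adjusted p = 0.133).

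Oasl1 had the largest difference of any tested member. It encodes a protein related to the oligoadenylate synthetases that binds RNA and restrains translation of the Irf7 message. Wild type signals were 95.3, 60.1 and 90.8, and transgenic signals were 875.5, 432.7 and 586.9. The groups were far apart, and the transgenic arrays spread more than the wild type ones. Oasl1 rose 6.44-fold (2.69 ± 0.33 SE, adjusted p = 0.00995), with an adjusted p of up to 0.0826, which it reached without wild type replicate 2. Its difference was 2.92 ± 0.25 SE (adjusted p = 0.000108) without transgenic replicate 2. Oasl2, its neighbour in gene order on chromosome 5, had signals of 304.8, 308.3 and 283.5 in wild type and 288.6, 242.0 and 392.2 in transgenic fat. The 95% interval of its log2 difference ran from −0.60 to 0.63, against 1.90 to 3.47 for Oasl1, and the difference between the 2 genes was not tested. Without transgenic replicate 2 Oasl2 had 0.16 (adjusted p = 0.667).

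Ifit3 belongs to the IFIT proteins, which bind viral RNA and adaptor proteins. Its signals were 223.4, 245.7 and 277.8 in wild type and 871.4, 767.3 and 1033 in transgenic fat, with no overlap. Ifit3 rose 3.41-fold (1.77 ± 0.24 SE, adjusted p = 0.0143), with an adjusted p of up to 0.126 without wild type replicate 2. Without transgenic replicate 2 it had 1.87 ± 0.19 SE (adjusted p = 0.000261). Mice have a near-identical copy, Ifit3b, and whether this probe set also reads it was not tested.

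The other IFIT members did not pass the test. Ifit1, which recognises viral RNA caps, had signals of 92.6, 101.6 and 127.8 in wild type and 168.2, 405.8 and 211.2 in transgenic fat. The groups did not overlap, and replicate 2 was the highest array. Its log2 difference was 1.09 ± 0.35 SE (adjusted p = 0.189), and with replicate 2 left out 0.74 ± 0.22 SE (adjusted p = 0.0579). Ifit2, a neighbour of Ifit3, had 61.3, 180.8 and 198.0 in wild type and 202.0, 298.9 and 192.4 in transgenic fat, with overlap, and a difference of 0.71 ± 0.44 SE (adjusted p = 0.473; 0.52 and 0.456 without replicate 2).

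The oligoadenylate synthetases make the signal that switches on RNA decay. Oas3 was dim, with 28.0, 16 and 21.9 in wild type and 80.1, 42.2 and 107.5 in transgenic fat. The groups did not overlap, but wild type signals were close to the offset of 16, on which the size of the difference therefore depends. It was 1.23 ± 0.32 SE (adjusted p = 0.115), and it was 1.53 ± 0.28 SE (adjusted p = 0.00616) with transgenic replicate 2 left out. After quantile normalization and after centring of the arrays, Oas3 passed the test also with all 6 arrays (1.33 and 1.35, adjusted p = 0.0284 and 0.0340). Oas2, its neighbour, and Oas1a overlapped between the groups, at −0.06 ± 0.22 SE (adjusted p = 0.904) for Oas2 and 0.30 ± 0.27 SE (adjusted p = 0.616) for Oas1a. With replicate 2 left out Oas2 had 0.04 and Oas1a 0.26 (adjusted p = 0.933 and 0.564).

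Cmpk2, a nucleotide kinase gene next to Rsad2 in gene order, had signals of 237.9, 145.4 and 114.7 in wild type and 306.7, 671.2 and 388.2 in transgenic fat. All transgenic values were above all wild type values. The difference was 1.35 ± 0.39 SE (adjusted p = 0.146), and it was 1.05 ± 0.28 SE (adjusted p = 0.0408) with transgenic replicate 2 left out. The other tested probe set of Cmpk2 overlapped, at 10.6, 50.1 and 61.6 in wild type and 92.2, 14 and 113 in transgenic fat. It did not pass the test, at 0.54 ± 0.65 SE (adjusted p = 0.703), or 1.20 ± 0.43 SE (adjusted p = 0.106) without replicate 2. Mx1, whose product blocks influenza virus and is defective in many laboratory strains, was dim (22.2, 43.3 and 29.2 against 41.4, 69.3 and 55.4) and overlapped (0.59 ± 0.27 SE, adjusted p = 0.337, and 0.45, adjusted p = 0.386, without replicate 2). Mx2 was at 5.4 to 6.2 in wild type and 8.1 to 12.6 in transgenic fat, all under the offset of 16, so no fold is given. Bst2 encodes tetherin, which holds budding virus on the cell. It had 349.6 to 429.1 in wild type, 493.2 and 723.9 in transgenic replicates 1 and 3 and 72.5 in replicate 2 (−0.32 ± 0.75 SE, adjusted p = 0.852, and 0.61, adjusted p = 0.102, without it).

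Zbp1 and Lgals3bp were singled out after their values were seen. Zbp1, a sensor of Z-form nucleic acid that can start cell death, had 84.6, 81.8 and 71.3 in wild type and 195.6, 158.3 and 179.7 in transgenic fat. The groups did not overlap, at 1.02 ± 0.21 SE (adjusted p = 0.0583), and Zbp1 passed the test without transgenic replicate 2 (1.10 ± 0.20 SE, adjusted p = 0.00682). Lgals3bp, a secreted galectin-binding glycoprotein, had 2323, 2257 and 2274 in wild type and 6692, 1629 and 7857 in transgenic fat. Replicate 2 lay below wild type and the other transgenic arrays far above it. The difference was 0.94 ± 0.57 SE (adjusted p = 0.463) with all arrays and 1.66 ± 0.14 SE (adjusted p = 9.39e-05) without replicate 2.

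Members that carry or restrain the signal showed small or split differences. Stat2, a signal carrier of the type I complex, had 133.7, 145.1 and 242.3 in wild type and 402.9, 21.6 and 368.9 in transgenic fat. Replicates 1 and 3 were above all wild type arrays and replicate 2 was far below them. The difference was −0.01 ± 0.91 SE (adjusted p = 0.996) with all 6 arrays and 1.13 ± 0.26 SE (adjusted p = 0.0196) without replicate 2, and its other probe set had 0.87 ± 0.20 SE (adjusted p = 0.0205) without it. Irf7, the factor that amplifies interferon production, had 320.6, 340.1 and 313.7 in wild type and 426.4, 97.3 and 509.5 in transgenic fat. Its difference turned from −0.20 ± 0.58 SE (adjusted p = 0.884) to 0.50 ± 0.18 SE (adjusted p = 0.116) without replicate 2. Irf9, the DNA-binding part of the type I complex, overlapped between the groups, at −0.41 ± 0.36 SE (adjusted p = 0.605) with all arrays and −0.03 ± 0.18 SE (adjusted p = 0.950) when replicate 2 was left out. Usp18, which removes ISG15 from proteins and dampens the receptor, had 0.33 ± 0.29 SE (adjusted p = 0.605), with a 95% interval from −0.36 to 1.01, and 0.19 (adjusted p = 0.721) without replicate 2. The RNA sensor genes Ifih1 and Dhx58 had 0.28 ± 0.36 SE and −0.19 ± 0.31 SE (adjusted p = 0.720 and 0.785). Both changed sign with replicate 2 left out, to −0.07 and 0.07 (adjusted p = 0.885 and 0.891).

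Of the other type I members, Xaf1, a partner of an apoptosis inhibitor, passed the test without transgenic replicate 2 (0.71 ± 0.20 SE, adjusted p = 0.0489, and −0.05, adjusted p = 0.979, with it). Its second probe set overlapped and did not pass, at 0.24 ± 0.24 SE (adjusted p = 0.598) without replicate 2 and 0.38 (adjusted p = 0.492) with it. Trim25, the ubiquitin ligase gene of the RNA sensor pathway, had 825.7, 636.3 and 671.0 in wild type and 873.5, 1418 and 1275 in transgenic fat without overlap (0.71 ± 0.27 SE, adjusted p = 0.258, and 0.57, adjusted p = 0.125, without replicate 2). Another tested probe set of Trim25 overlapped, with 139 on replicate 2 against 424.8 to 619.5 in wild type. It had −0.15 ± 0.65 SE (adjusted p = 0.925), or 0.64 ± 0.20 SE (adjusted p = 0.0734) without replicate 2. The remaining one, without overlap, had 0.98 ± 0.38 SE (adjusted p = 0.272), or 0.97 ± 0.37 SE (adjusted p = 0.127) without replicate 2. Trim30a, Ifi35 and Parp14 overlapped between the groups, with differences of 0.55, 0.23 and 0.11 (adjusted p = 0.433, 0.622 and 0.852). Without replicate 2 these were 0.28, 0.19 and 0.20 (adjusted p = 0.420, 0.595 and 0.586).

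**Figure D2:**
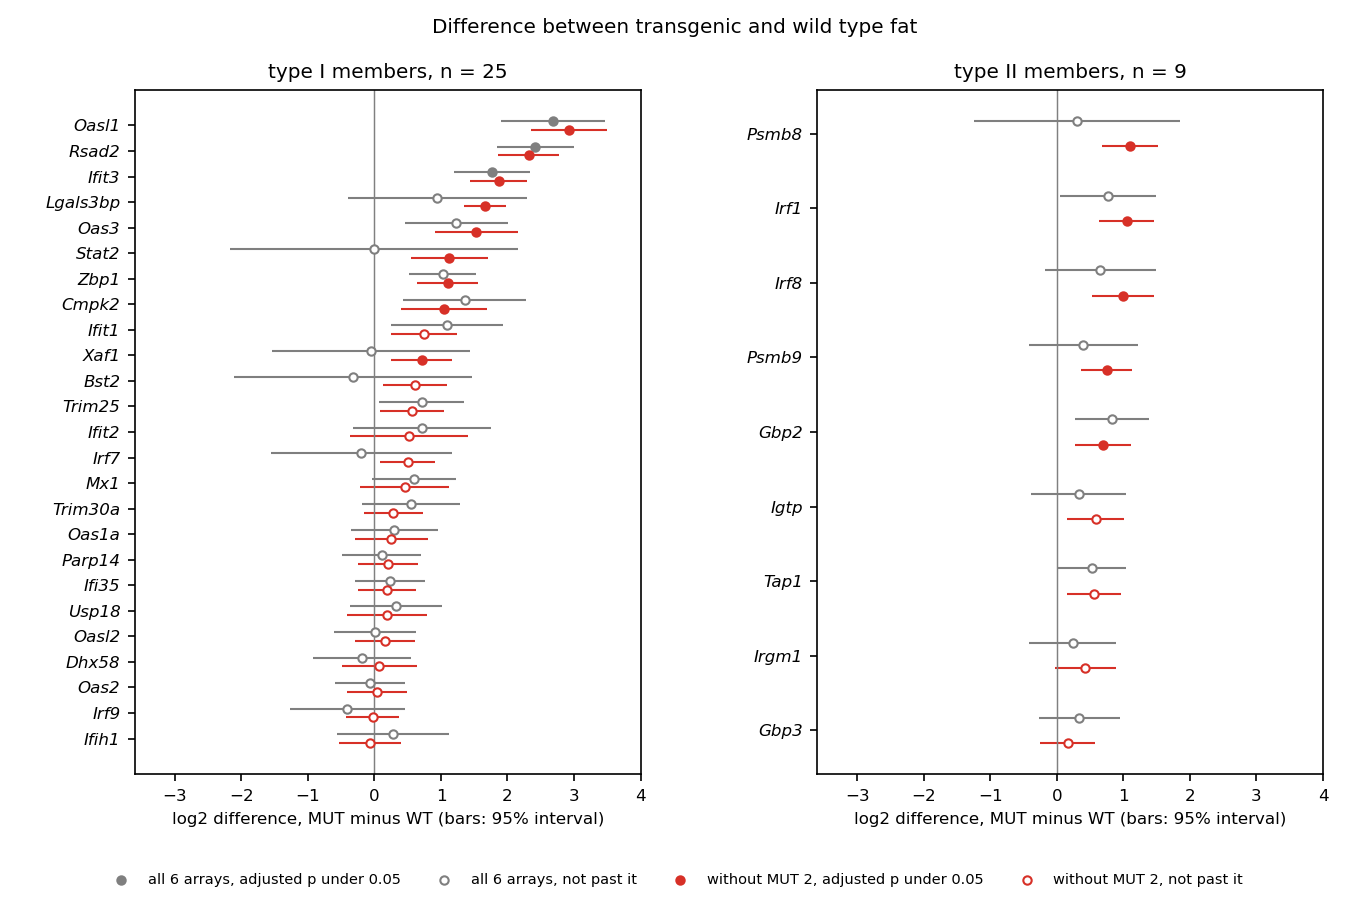
Log2 difference between transgenic and wild type fat for each tested member with its 95% interval, with all 6 arrays (grey) and without transgenic replicate 2 (red); filled points passed an adjusted p of 0.05. With all arrays 3 points are filled, and without that array 14, of which 9 are type I and 5 type II members.

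In the type II class, Irf1 encodes the transcription factor that carries much of the response to interferon gamma. Its signals were 590.8, 618.0 and 626.6 in wild type and 1116, 715.5 and 1473 in transgenic fat. The wild type arrays lay close together and below all transgenic arrays. The difference was 0.77 ± 0.30 SE (adjusted p = 0.275), and it was 1.05 ± 0.18 SE (adjusted p = 0.00503) with transgenic replicate 2 left out. Irf8, a lineage factor of macrophages and dendritic cells as well as an interferon target, had 311.8, 295.0 and 236.2 in wild type and 512.5, 274.7 and 636.1 in transgenic fat, where replicate 2 lay within the wild type range. It had 0.65 ± 0.35 SE (adjusted p = 0.417), and with that array left out 0.99 ± 0.20 SE (adjusted p = 0.0119). On the other tested probe set of Irf8, replicate 2 was at 26.2, below the wild type signals of 83.2 to 132.4. That probe set had 0.10 ± 0.66 SE (adjusted p = 0.951), or 0.89 ± 0.25 SE (adjusted p = 0.0491) without replicate 2.

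The GTPase genes of the class act against parasites inside cells. Gbp2, a guanylate-binding protein, had 1325, 1294 and 1040 in wild type and 1740, 2614 and 2239 in transgenic fat, and its second probe set likewise had no overlap. The difference was 0.83 ± 0.23 SE (adjusted p = 0.139), and it was 0.70 ± 0.19 SE (adjusted p = 0.0387) with transgenic replicate 2 left out. The second probe set of Gbp2 did not pass the test either way. It had 0.86 ± 0.28 SE (adjusted p = 0.187), or 0.64 ± 0.19 SE (adjusted p = 0.0619) without replicate 2. Gbp3, close to Gbp2 on chromosome 3, overlapped between the groups, at 0.34 ± 0.26 SE (adjusted p = 0.552), or 0.16 (adjusted p = 0.642) without replicate 2. The immunity-related GTPase genes Igtp and Irgm1 had 0.33 ± 0.30 SE and 0.24 ± 0.27 SE (adjusted p = 0.617 and 0.689), and in both of them transgenic replicates 1 and 3 were above wild type. Those arrays alone gave 0.58 and 0.43 (adjusted p = 0.0781 and 0.220).

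Psmb9, Tap1 and Psmb8 are neighbours on chromosome 17 and serve antigen processing, Psmb8 and Psmb9 as subunits of the immunoproteasome and Tap1 as part of the peptide transporter. Tap1 had 290.9, 295.2 and 264.5 in wild type and 408.6, 397.2 and 436.3 in transgenic fat. Here all 3 transgenic arrays were alike and above wild type, at 0.52 ± 0.22 SE (adjusted p = 0.301), with a 95% interval from 0.01 to 1.04, and 0.55 ± 0.18 SE (adjusted p = 0.0814) when replicate 2 was left out. Psmb8 had 682.0, 766.4 and 668.6 against 1320, 276.8 and 1772, and Psmb9 had 524.9, 523.7 and 464.0 against 865.2, 403.9 and 849.2. On these probe sets replicates 1 and 3 were above wild type and replicate 2 was below in both genes. Their differences were 0.30 ± 0.65 SE and 0.40 ± 0.34 SE (adjusted p = 0.837 and 0.594). With replicate 2 left out, Psmb8 had 1.10 ± 0.19 SE (adjusted p = 0.00438) and Psmb9 had 0.75 ± 0.17 SE (adjusted p = 0.0196). The other tested probe set of Psmb8 was dim, at 8.5, 28.2 and 40.7 in wild type and 56.9, 51.3 and 65.8 in transgenic fat. On it the groups did not overlap, at 0.90 ± 0.34 SE (adjusted p = 0.253), or 0.97 ± 0.37 SE (adjusted p = 0.131) without replicate 2.

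Probe sets of 1 gene could part on transgenic replicate 2. In 12 members with several tested probe sets, the range of the log2 difference between probe sets of a gene had a median of 0.58 with all 6 arrays and 0.14 without that array, and it was wider with it in 9 of the 12. Probe sets of 6 genes (Ifi35, Dhx58, Trim25, Trim30a, Xaf1 and Parp14) had differences of opposite sign with all arrays, and those of 0 genes without it. For Ifi35, replicate 2 minus the mean of the other transgenic arrays was −3.93 log2 units on one probe set and 0.14 on another, and for Rsad2 it ran from −3.49 to 0.29. No probe positions were used, so where in each transcript these probe sets lie was not tested.

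**Figure D3:**
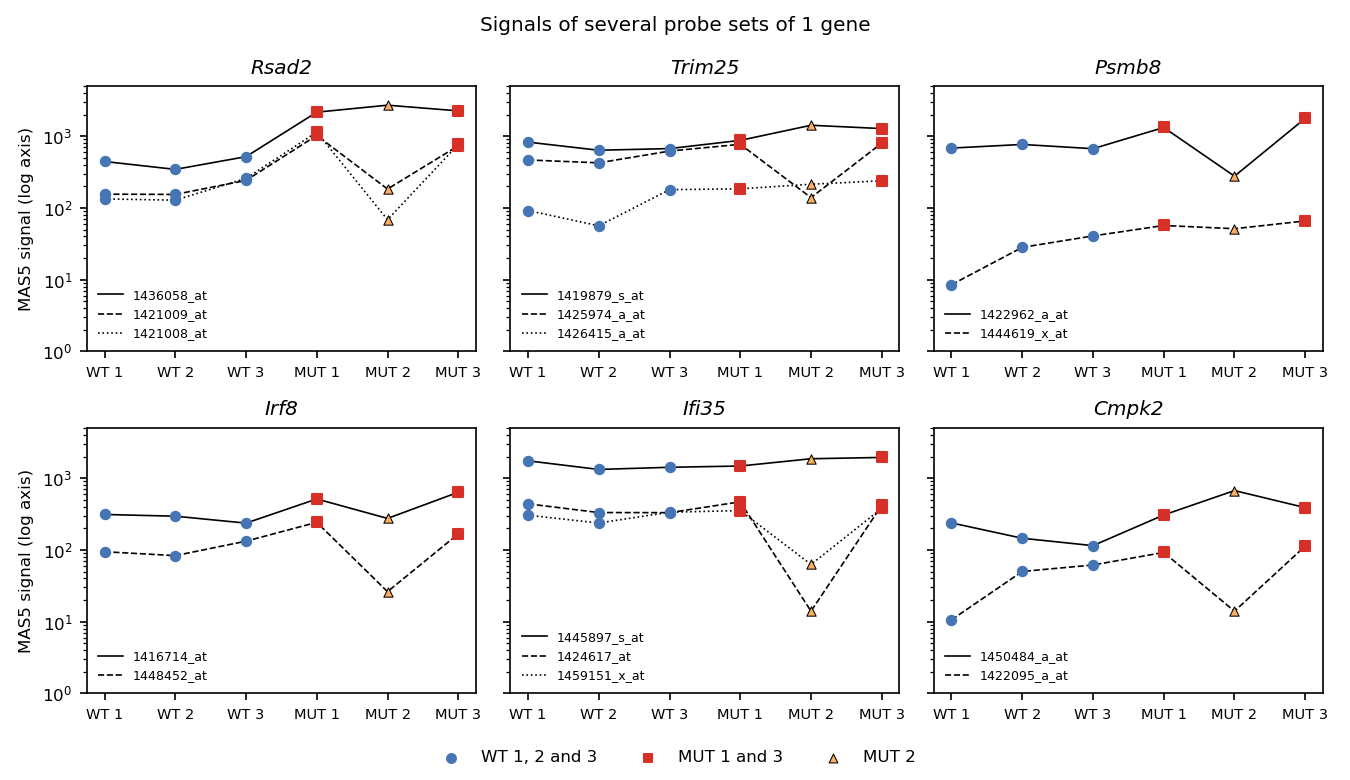
MAS5 signal on a log axis for 6 members with several tested probe sets, on wild type (circles), transgenic replicates 1 and 3 (squares) and transgenic replicate 2 (triangles); each line joins the values of 1 probe set and stands for no order of the mice. At transgenic replicate 2 the lines of Rsad2, Trim25, Ifi35 and Cmpk2 part, and there Rsad2 has 2701, 183.4 and 68.5 on its 3 probe sets.

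The rest of the interferon pathway was taken from lists of ligands, receptors and kinases, brakes, sensors and other interferon targets, 116 genes of which 85 were tested. With all 6 arrays 0 of the 85 passed the limma test, with 10 higher (11.8%) and 1 lower at an unadjusted p under 0.05, where 9.44% of all genes were higher at that p. Without transgenic replicate 2, 10 were called higher (11.8%) and 1 lower, where 8.04% of all genes were higher and 7.33% lower. Both shares of higher genes lie near those over all genes. Their median difference was 0.18, and 0.27 without that array, against −0.04 and 0.02 over all genes.

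Interferon genes were dim. Ifnb1, the gene of interferon beta, had 45.9, 25.7 and 25.6 in wild type and 50.9, 38.4 and 34.9 in transgenic fat (0.26 ± 0.25 SE, adjusted p = 0.634, and 0.30, adjusted p = 0.603, without replicate 2). Ifng was below the filter, at 3.1 to 17.7 in wild type and 2.6 to 17.1 in transgenic fat. Of 12 matched genes of interferons and of cytokines that act with them 4 were tested (Ifnb1, Il12a, Il15 and Il18), and 0 passed the test with or without transgenic replicate 2, with 0 at an unadjusted p under 0.05 in all 6 arrays. Over all genes 3.77% passed with all arrays and 15.4% without that replicate. At an unadjusted p under 0.05 with all arrays, 9.44% were higher and 1174 of 13111 lower. With 4 genes, a count of 0 cannot be told from these shares. A past or local interferon signal was not measured.

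Among the receptors Ifngr1, which binds interferon gamma, had signals of 1635, 1888 and 1909 in wild type and 810.8, 1072 and 1085 in transgenic fat. Every transgenic array was below every wild type array. Its difference was −0.87 ± 0.22 SE (adjusted p = 0.103), and it was −0.93 ± 0.18 SE (adjusted p = 0.00925) with transgenic replicate 2 left out. After quantile normalization it passed the test with all arrays as well (−0.93, adjusted p = 0.0411). Ifngr2, its partner chain, had −1.08 ± 1.03 SE (adjusted p = 0.628), with 8.1 on transgenic replicate 2 against 262.7 to 380.2 on the other arrays, and 0.24 (adjusted p = 0.490) without that replicate. Its second probe set went the other way, at 138.2, 130.2 and 134.4 in wild type and 197.3, 180.4 and 219.3 in transgenic fat without overlap (0.51 ± 0.21 SE, adjusted p = 0.295, 95% interval 0.01 to 1.01). The type I receptor genes Ifnar1 and Ifnar2 had −0.10 ± 0.34 SE and 0.20 ± 0.23 SE (adjusted p = 0.901 and 0.693), with 95% intervals from −0.91 to 0.71 and from −0.35 to 0.74. Without replicate 2 they had 0.24 and 0.02 (adjusted p = 0.514 and 0.948).

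The sensor and signalling genes held 3 of 15 that were higher without transgenic replicate 2 and 0 with it (1 at an unadjusted p under 0.05), where 8.04% and 2.23% of all genes were called higher. These were Ikbke, a kinase upstream of the interferon genes (1.53 ± 0.26 SE, adjusted p = 0.00424), and the RNA receptor genes Tlr8 (1.16 ± 0.25 SE, adjusted p = 0.0137) and Tlr7 (0.90 ± 0.24 SE, adjusted p = 0.0380), of which Tlr7 was named after its values were seen. With all 6 arrays they had 0.98, 0.11 and 0.95 (adjusted p = 0.383, 0.956 and 0.108). Isg20, an exonuclease gene placed among both the brakes and the type I targets, had 345.2, 353.7 and 338.0 against 682.5, 623.0 and 782.6. It did not overlap between the groups and had 0.97 ± 0.22 SE (adjusted p = 0.0797), and with replicate 2 left out 1.05 ± 0.18 SE (adjusted p = 0.00420). Of 9 tested genes listed as brakes it alone passed the test there, and of 31 other type I targets it and Herc6 did. Isg20 thus counts in both lists, and whether it restrains interferon signalling was not tested. With all 6 arrays 0 of either list passed, with 3 higher in each at an unadjusted p under 0.05. Over all genes 9.44% were higher at that p.

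Of 18 other type II targets 0 passed the test with all arrays (4 higher at an unadjusted p under 0.05) and 5 were higher without transgenic replicate 2. Over all genes 9.44% were higher at an unadjusted p under 0.05 with all arrays, and 8.04% were called higher without that replicate. Iigp1, an immunity-related GTPase, had 639.8, 710.9 and 917.0 in wild type and 2684, 584.1 and 2334 in transgenic fat (1.03 ± 0.57 SE, adjusted p = 0.430). It passed the test with replicate 2 left out (1.72 ± 0.19 SE, adjusted p = 0.000458). Its second probe set passed the test with all arrays, at 308.9, 376.0 and 310.4 against 987.9, 1584 and 1262 (1.88 ± 0.26 SE, adjusted p = 0.0162). The largest adjusted p of that probe set on leaving out an array was 0.117. Tapbp, the bridge between peptide transporter and MHC class I, had 1.04 ± 0.14 SE (adjusted p = 0.00138) and Tap2, the second chain of the transporter, 0.96 ± 0.18 SE (adjusted p = 0.00660) without replicate 2. With it they had 0.89 (adjusted p = 0.0633) and −0.32 (adjusted p = 0.889). With all arrays the value of Tapbp rests on 1 of its 2 tested probe sets, since averaging both gave 0.06 (adjusted p = 0.970). No such average was made without replicate 2.

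Markers of other cells moved with the groups. Beside the counts here and in the next paragraph, 2.23% of all genes rose and 1.54% fell with all arrays. At an unadjusted p under 0.05, 9.44% were higher and 1174 of 13111 lower. With transgenic replicate 2 left out, 8.04% of all genes were higher and 7.33% lower. Of 20 macrophage markers 5 rose and 0 fell with all arrays, with 9 higher and 1 lower at an unadjusted p under 0.05. Without transgenic replicate 2, 11 of the 20 were higher and 1 lower. No marker of that list was under 16 on all arrays. Adgre1, which encodes F4/80, had 830.9, 763.5 and 609.4 against 1505, 3320 and 2613. The 10 fat cell markers held 2 that fell and 0 that rose, and the 10 endothelial markers 0 of either kind with all arrays (3 lower at an unadjusted p under 0.05), with 7 and 6 lower without replicate 2. Endothelial summed signals were 11232 to 12620 in wild type and 2495 to 8110 in transgenic fat.

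The 12 T and NK cell markers summed to 858.6 to 903.1 in wild type and 864.3 to 1168 in transgenic fat, and 0 of 9 tested passed the test with all arrays (1 higher at an unadjusted p under 0.05) and 1, Cd3e, without replicate 2. Among 6 tested markers of plasmacytoid dendritic cells, the main source of interferon alpha in blood, 1 fell and 0 rose, with 1 lower and 1 higher without replicate 2. Siglech of that list had 0.58 ± 0.26 SE (adjusted p = 0.341, and 0.79 and 0.0678 without replicate 2). That list holds the members Bst2 and Irf8 as well, and Irf8 is its 1 marker called higher without replicate 2. Of 7 B and plasma cell markers 1 rose and 0 fell, and 3 were higher without replicate 2. Their summed signal was 761.9 to 1057 in wild type and 2004 to 4425 in transgenic fat, without overlap. Of 7 tested neutrophil markers 1 rose and 0 fell, and 3 were higher without replicate 2, with sums of 317.7 to 436.9 in wild type and 768.4 to 914.1 in transgenic fat, also without overlap. Of 5 tested dendritic cell markers 0 passed the test (2 lower at an unadjusted p under 0.05), and 1, Itgax, was higher without replicate 2. The summed signal of 9 genes of epididymis and testis was 166.5 to 280.6 in wild type and 200.9 to 328.9 in transgenic fat, and 0 of 3 tested passed the test (1 higher at an unadjusted p under 0.05). The part of these cells in the differences of the interferon-stimulated genes was not tested.

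**Figure D4:**
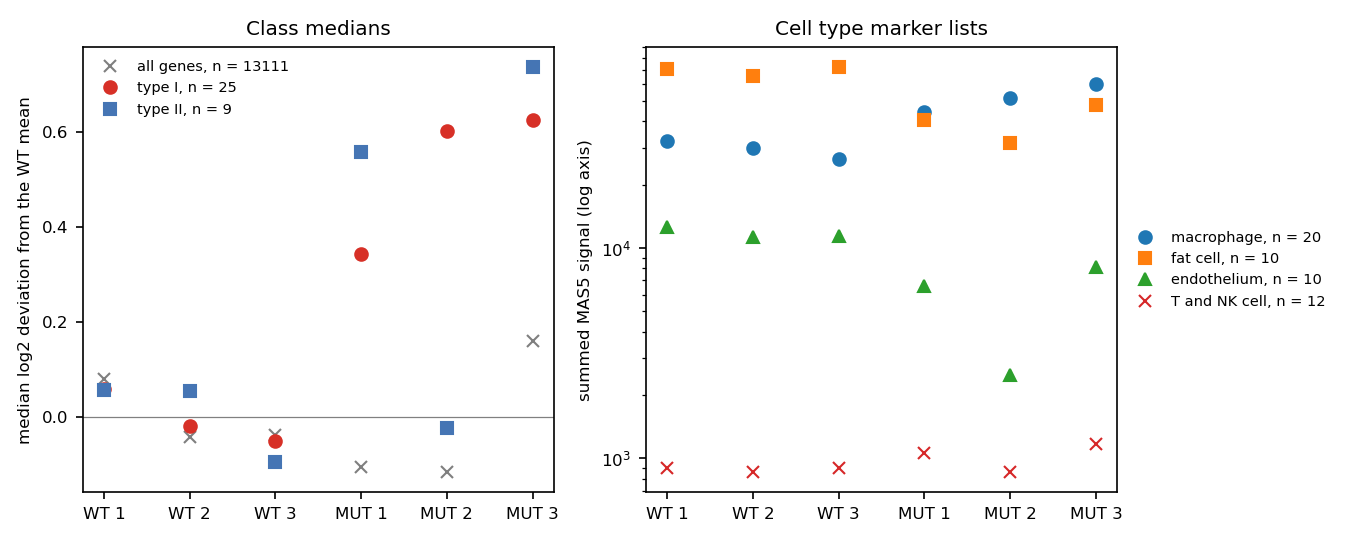
Left, the median log2 deviation from the wild type mean on each array over all 13111 genes, 25 type I and 9 type II members; right, the summed MAS5 signal of 4 marker lists on a log axis. Both classes lie above wild type in transgenic replicates 1 and 3, the type II median is at −0.02 in replicate 2, and the macrophage sum is 44086 or more on every transgenic array and at most 32088 on the wild type arrays.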

How the data were processed

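The authors' deposited table holds 1 signal intensity per probe set and array, on a linear scale; the submitters' processing notes name MAS5. Its version and scaling target are unknown here, and detection calls were not used. There were 6 arrays, 3 per group, which limits the precision, and 0 columns of other samples. Of 45101 probe sets, 34958 have 1 gene in the platform annotation, 932 several and 9211 none. Genes were named only from the first kind. Promoter sequences and gene order are from RefSeq (GRCm38.p6).

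The 64 control probe sets and the dimmest 40% of the others by mean signal were left out, and log2(signal + 16) of the remaining 27022 was fitted in R 4.3.3 with limma 3.58.1 (lmFit, eBayes with trend, two-sided, Benjamini-Hochberg over all of them, threshold 0.05). The scripts were checked on simulated data. Differences are on this scale and understate the change of dim genes. Where a gene had several tested probe sets, the one of highest mean stands for it. Each p-value reflects variation between mice and between preparations. Members, classes and lists were chosen with earlier results of these data known, so their counts are no independent support.

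Members given in full were those past the threshold, up to 6 per class with the largest difference without overlap, and, where measured, a set list (Irf7, Stat2, Irf1, Irf8, Gbp2, Tap1 and Psmb8; Isg15 was on it but not measured alone). Pathway genes were those past the threshold (up to 6 with all arrays and up to 6 without transgenic replicate 2), the receptors, Ifnb1 and Ifng. Alternatives were other offsets, filters, scalings, eBayes settings, array weights, blocks, averaged probe sets and each array left out. Tables and figures were made with Python 3.11.15, pandas 2.3.3 and matplotlib 3.10.9.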

Additional observations from a re-analysis of the deposited data

How the results depend on the processing

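The number of members past the threshold was 3 with all 6 arrays under other offsets, without the filter, under other eBayes settings and with a block for the 3′ to 5′ ratio of the Pcx control (under or over 10), 4 with a filter of the lowest 60% (Zbp1 added) and 4 after centring the arrays (Oas3 added). Over all genes 391 to 569 passed under these settings (485 with the 60% filter and 419 after centring), where 494 did in the main fit. Quantile normalization gave 717 genes and 5 members, all 5 of type I, a type I median of 0.49 and 2 pathway genes. Irf7, Stat2 and Ifnar1 then turned to 0.035, 0.14 and 0.12. Centring gave a type I median of 0.44, with Stat2 at 0.11 and Ifnar1 at 0.020. An offset of 1 turned Tlr8 to −0.12 and an offset of 64 turned Stat2 to 0.15. Array weights gave 1943 genes, 13 members (8 of type I, 5 of type II), 10 pathway genes and a type I median of 0.45, with Irf7 at 0.43, Stat2 at 1.03, Tap2 at 0.83, Ifnar1 at 0.26 and Ifngr2 at 0.15. Quantile normalization without transgenic replicate 2 gave 2989 genes, 19 members (13 of type I, 6 of type II), 15 pathway genes and a type I median of 0.51, with Irf7 at 0.49, Stat2 at 1.10, Tap2 at 0.94, Ifnar1 at 0.23, Ifnar2 at −0.021 and Ifngr2 at 0.22. Leaving out that replicate with no filter, an alternative chosen after seeing the data, gave 1500 genes, 10 members (6 of type I, 4 of type II; Cmpk2, Gbp2, Stat2 and Xaf1 were no longer past the threshold), 7 pathway genes and medians of 0.51 for type I and 0.70 for type II, with Irf7 at 0.50, Stat2 at 1.13, Tap2 at 0.96, Ifnar1 at 0.24 and Ifngr2 at 0.24. Averaging the probe sets of a gene gave 629 genes, 3 members (Ifit3, Oasl1 and Zbp1, without Rsad2) and 1 pathway gene, Iigp1. The cause of these shifts was not tested.

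Leaving out 1 array at a time gave 89 to 2015 genes (494 with all), 1 to 14 members, 1 to 9 of type I, 0 to 5 of type II, 0 to 11 pathway genes, a type I median of 0.23 to 0.56 and a type II median of 0.36 to 0.70. Rsad2 alone passed without wild type replicate 1, 2 or 3 or transgenic replicate 3. The range was −0.61 to 0.50 for Irf7, −0.61 to 1.13 for Stat2, −0.20 to 1.10 for Psmb8, −1.03 to 0.96 for Tap2, −0.52 to 1.16 for Tlr8, −0.28 to 0.24 for Ifnar1 and −1.78 to 0.24 for Ifngr2. The median log2 difference of all tested probe sets was −0.09 with 6 arrays and 0.02 after quantile normalization. Same-numbered mice did not deviate together (correlations −0.374, 0.0892 and −0.0507, and 1 of 6 samples was closest to its own number), and a replicate block gave 208 genes and 2 members, with Ifit3 at an adjusted p of 0.0869. With 3 arrays a group, 1 of them with high 3′ to 5′ ratios of 2 controls, the number of arrays limits the precision, and signals under 16 have no reliable fold.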
